A study of Mus musculus with 8 samples.

Results

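Interferon-induced antiviral and GTPase genes were examined in spines of mice with proteoglycan-induced spondylitis (PGISp) and of control mice. The set held 42 genes listed by symbol, and every array probe carrying one of these symbols, or an older symbol of the same gene, was taken. Of the 42 genes, 40 had a probe (64 probes in all), and 28 had a probe bright enough to be tested among 9609 genes of the array. The list was split by the inducer each gene is best known for. This gave 30 genes of the interferon alpha type, of which 21 were tested, and 12 genes of the interferon gamma type, of which 7 were tested.

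Whole spines of 4 PGISp mice and 4 control mice were collected at week 12, and RNA of each spine was hybridised to its own Illumina MouseRef-8 array. Both groups were BALB/c mice with an IL4 knockout. PGISp mice were females that received, from 3 months of age, 3 injections of human cartilage extract (on days 0, 21 and 42), each of 2 mg of extract with 2 mg of the adjuvant dimethyl dioctadecyl ammoniumbromide, and only mice with severe peripheral arthritis were used. Control mice received no cartilage extract, and their sex is not stated separately in the sources used here. Inflammation of the spines themselves could not be scored before RNA was extracted. All 8 arrays lay on 1 BeadChip, and spines are named by array position, with PGISp spines A, C, E and G and control spines B, D, F and H. Values are the authors' normalized log2 levels, on which a difference of 1 is a 2-fold difference. Folds are differences of group means turned to the linear scale. A gene was called changed at an adjusted p below 0.1 in limma, with adjustment over all genes tested. A whole spine holds bone, marrow, disc and muscle, so that a lower level from fewer cells of a type and one from less RNA per cell cannot be told apart.

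Type I interferons (alpha and beta) bind one receptor on nearly all cells and act through a complex of STAT proteins with Irf9 on a DNA element called the ISRE. Type II interferon (gamma), mainly a product of T cells and NK cells, acts through a STAT dimer on a shorter palindromic element called GAS and raises Irf1 and large GTPases of the GBP and IRG families. Many of these genes respond to both, and their products sense or degrade viral RNA, attach the ubiquitin-like protein Isg15 to other proteins, or attack the vacuoles in which microbes live.

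Promoter windows were read from 250 bases before to 50 bases after each annotated start (RefSeq, GRCm38.p6), for 31 of the 42 genes. Iigp1 was not read, because its chromosome was left out for the set, although it was kept for all genes. A pair of short motifs was searched on both strands. The core of an ISRE was taken as GAAA, any 2 bases and GAAA again (called the GAAA pair here), and a GAS as TTCNNNGAA, where N is any base. The GAAA pair was found in 17 of the 31 genes (54.8%), against 3.99% of all 27025 genes with a window. It was present in 11 of 22 alpha-type genes and 6 of 9 gamma-type genes. TTCNNNGAA was found in 8 of 31 genes (25.8%), against 9.55% of all genes. It was present in 6 of 22 alpha-type genes (27.3%) and 2 of 9 gamma-type genes (22.2%). A match is a description of the letters in the window and does not show binding. Capitals mark the motif in the sequences that follow, which are written 5′ to 3′ on the strand of the gene.

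The windows of the 3 genes called higher in PGISp spines are shown whole, because they differ in what they hold. Samd9l (chr6:3399522-3399821, minus strand) matched neither motif in this window. Oas1g (chr5:120887564-120887863, minus strand) held 2 overlapping copies of the GAAA pair just before its start. Irf1 (chr11:53769764-53770063, plus strand) held, in the window at one of its annotated starts, 1 copy of TTCNNNGAA and none of the GAAA pair.
Samd9l: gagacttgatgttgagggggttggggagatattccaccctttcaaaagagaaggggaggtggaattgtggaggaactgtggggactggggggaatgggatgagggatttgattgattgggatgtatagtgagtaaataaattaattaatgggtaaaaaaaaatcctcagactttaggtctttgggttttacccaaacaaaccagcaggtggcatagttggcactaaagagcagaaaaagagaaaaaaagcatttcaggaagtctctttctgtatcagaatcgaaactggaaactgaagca
Oas1g: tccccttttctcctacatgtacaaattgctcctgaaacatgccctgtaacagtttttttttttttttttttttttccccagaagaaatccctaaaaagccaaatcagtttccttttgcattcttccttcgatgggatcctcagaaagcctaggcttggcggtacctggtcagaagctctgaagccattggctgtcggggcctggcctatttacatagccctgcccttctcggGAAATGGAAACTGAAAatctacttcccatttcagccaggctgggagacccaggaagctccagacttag
Irf1: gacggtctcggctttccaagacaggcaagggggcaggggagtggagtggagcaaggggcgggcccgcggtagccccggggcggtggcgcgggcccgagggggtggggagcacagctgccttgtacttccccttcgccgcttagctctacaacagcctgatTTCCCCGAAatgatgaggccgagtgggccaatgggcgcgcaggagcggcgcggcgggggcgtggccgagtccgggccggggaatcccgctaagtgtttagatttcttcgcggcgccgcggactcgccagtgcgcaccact

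The motif with 10 bases on each side is shown for other genes whose levels are described below, so that their elements can be compared. Oas1a, the neighbour of Oas1g, had the same letters as Oas1g over the whole stretch, although its 1 array probe lay at background. Irgm1 had 2 overlapping copies, Isg15 had 3, and Bst2 had 2. Bst2 also had a TTCNNNGAA, whose last bases overlap its first GAAA pair. The capitals shown for Bst2 mark only the GAAA pairs. Igtp had 1 GAAA pair, with a TTCNNNGAA just upstream of it. Rsad2 and Ddx58 carried the motif on the other strand, where it reads TTTC, any 2 bases and TTTC.
Oas1a, chr5:120907520-120907555, minus strand: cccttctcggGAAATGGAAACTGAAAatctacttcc
Irgm1, chr11:48871425-48871460, minus strand: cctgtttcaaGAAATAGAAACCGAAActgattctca
Isg15, chr4:156200865-156200906, minus strand: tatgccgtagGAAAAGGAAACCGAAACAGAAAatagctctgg
Bst2, chr8:71537577-71537612, minus strand: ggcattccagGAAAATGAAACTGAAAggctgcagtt
Igtp (GAAA pair), chr11:58199512-58199541, plus strand: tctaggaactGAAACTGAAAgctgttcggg
Igtp (TTCNNNGAA), chr11:58199501-58199529, plus strand: aactagccatTTCTAGGAActgaaactga
Rsad2, chr12:26456553-26456582, minus strand: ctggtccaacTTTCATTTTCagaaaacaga
Ddx58, chr4:40239804-40239833, minus strand: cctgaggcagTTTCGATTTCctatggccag

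At week 12 most interferon-induced genes differed little between PGISp and control spines. Samd9l rose 1.48-fold, Oas1g 1.45-fold and Irf1 1.19-fold, and no member fell. These 3 calls of 28 genes (10.7%) stood against 6.25% of all genes tested that were called higher, and 0 lower calls against 4.56% of all genes. At an unadjusted p below 0.05 in limma, 8 members were higher (11.6% of all genes) and 0 were lower (10.9% of all genes). A small shift in one direction was spread over the set. Of the 28 genes, 23 had a higher mean in PGISp spines and 5 a lower mean, against 48.5% of all genes with a higher mean. The median log2 fold change was 0.10 (1.07-fold), against -0.0046 over all genes tested. The shift was uneven over single spines, as described below. Without control spines B and F, the median was 0.02 over alpha-type and 0.01 over gamma-type genes.

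**Figure D1:**
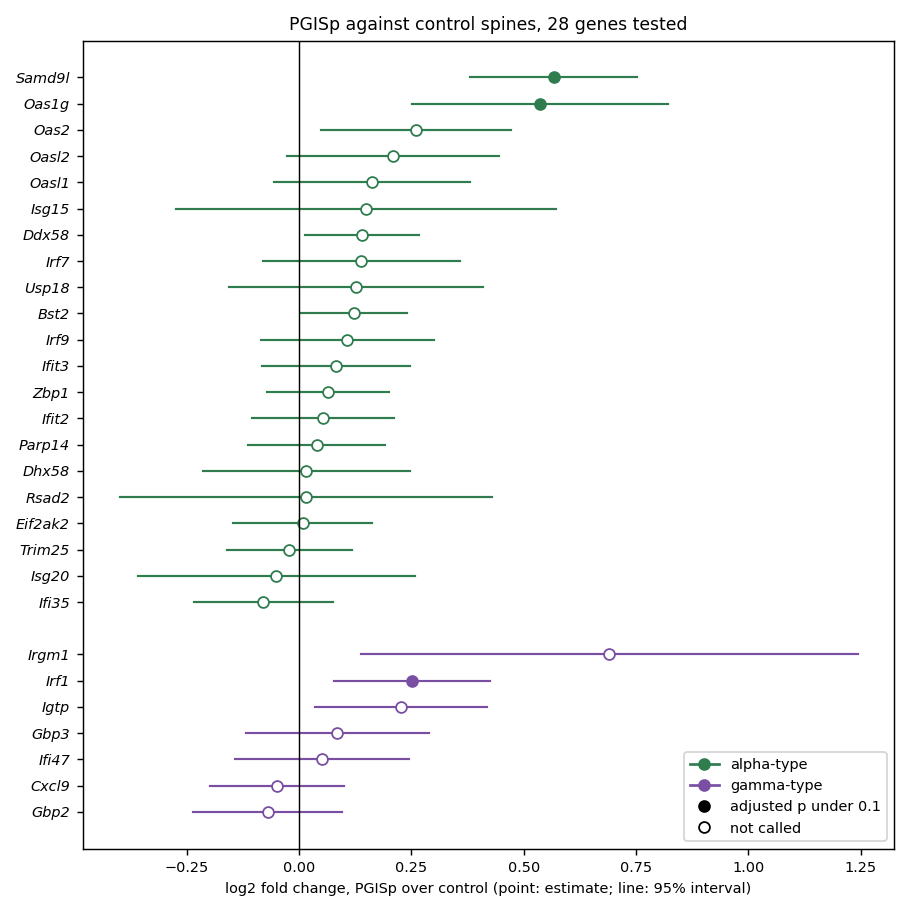
Log2 fold change of PGISp over control spines (x axis) for the 28 genes tested, with the 21 alpha-type genes above the 7 gamma-type genes and lines for 95% intervals from limma (4 arrays per group). Filled points mark the 3 called genes, Samd9l, Oas1g and Irf1, and 23 of the 28 points lie above 0.

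Samd9l, an antiviral factor that restricts poxviruses and slows the growth of blood-forming cells, gave the clearest difference. It read 10.11, 9.86, 9.73 and 9.99 in PGISp spines A, C, E and G, against 9.35, 9.41, 9.27 and 9.39 in control spines B, D, F and H. The groups were fully apart, with E the lowest PGISp spine and D the highest control. The difference was 0.57 ± 0.08 (SE; adjusted p = 0.00638), with a 95% interval of 0.38 to 0.75. Without control spines B and F, which carried a Y-linked signal described below, it was 0.52 (adjusted p = 0.103).

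Oas1g is a 2′-5′-oligoadenylate synthetase, an enzyme of the family that senses double-stranded RNA and activates the RNA-degrading enzyme RNase L. Its levels were 8.05, 7.88, 7.56 and 8.10 in PGISp spines A, C, E and G, against 7.29, 7.60, 7.17 and 7.39 in control spines B, D, F and H. PGISp spine E lay just below control spine D, so the groups overlapped, while PGISp A, C and G were above all control spines. The difference was 0.54 ± 0.13 (SE; adjusted p = 0.0387). A dimmer probe of the gene gave 0.29 ± 0.08 (SE; adjusted p = 0.0807 where every probe was tested, a fit that called 5.84% of probes higher), and its other probes were below the filter. The call was lost without control spine B (adjusted p = 0.103) or without control spine F (adjusted p = 0.125). The mouse genome holds several near-identical Oas1 genes side by side, and how far their transcripts share this probe was not tested.

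Irf1, a transcription factor that binds ISRE-like elements and is itself an early target of interferon gamma, changed by less. It read 9.39, 9.49, 9.24 and 9.30 in PGISp spines A, C, E and G, against 9.11, 9.22, 8.96 and 9.13 in control spines B, D, F and H. The groups did not overlap, but PGISp E and control D lay close together. The difference was 0.25 ± 0.08 (SE; adjusted p = 0.0888), close to the threshold, and 14 of 21 alternatives lost the call. A second probe of Irf1 also kept the groups apart, as did 7.31% of all probes, with a difference of 0.30 ± 0.09 (adjusted p = 0.0948), whereas 2 dimmer probes gave 0.12 and 0.02 (adjusted p = 0.429 and 0.867) and a further probe was below the filter.

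**Figure D2:**
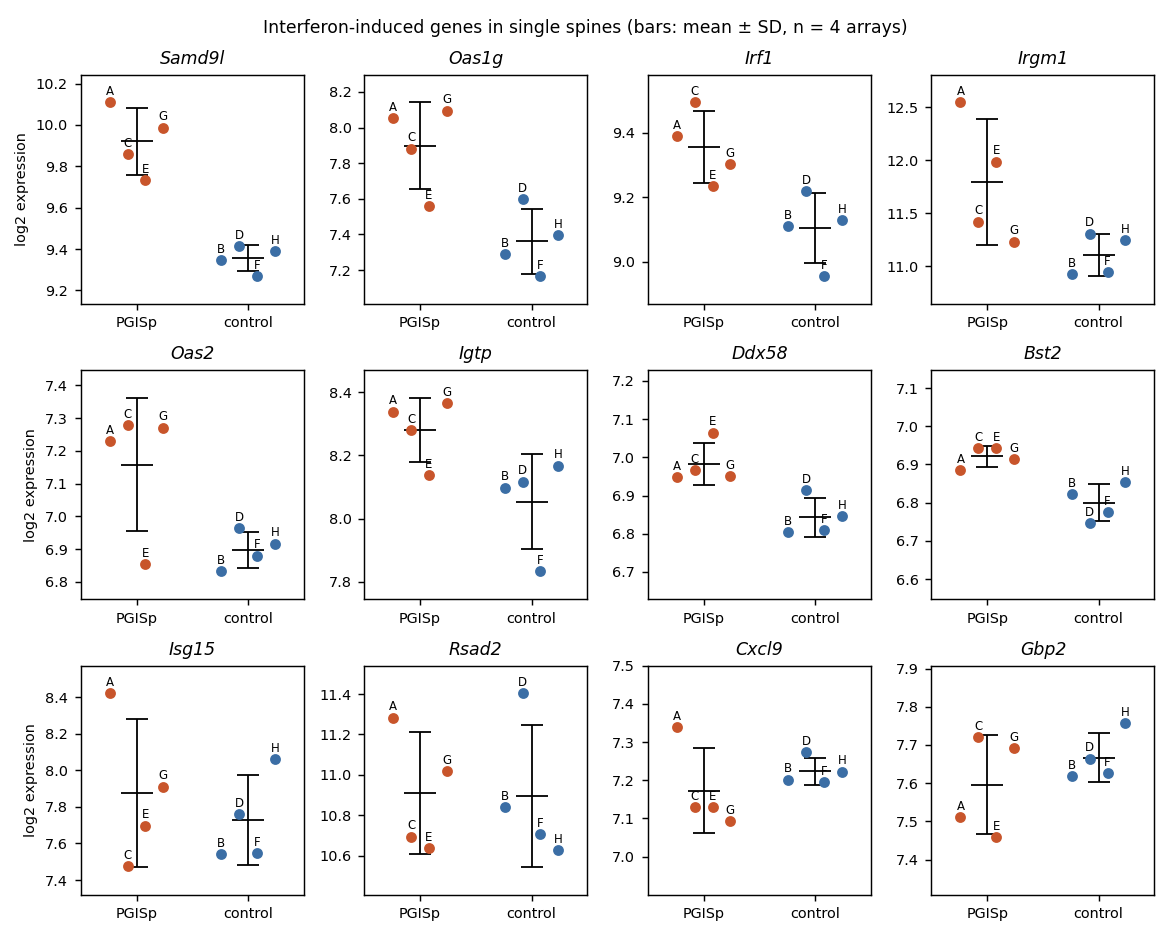
Log2 level (y axis) of 12 interferon-induced genes in each spine, with PGISp left of control, letters for array positions and bars for mean ± SD over 4 arrays. Samd9l and Irf1 are separated between the groups, Oas1g overlaps through PGISp E alone, and Rsad2 and Isg15 spread widely inside both groups.

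Immunity-related GTPases, which interferon gamma induces to attack the vacuoles of intracellular microbes, held the largest fold of the set without a call. Irgm1, which also regulates autophagy and the survival of blood-forming stem cells, read 12.55, 11.42, 11.99 and 11.23 in PGISp spines A, C, E and G, against 10.92, 11.31, 10.95 and 11.24 in control spines B, D, F and H. PGISp A and E stood well above the controls, while PGISp G lay inside the control range. The difference was 0.69 ± 0.25 (SE; 1.61-fold; adjusted p = 0.133). A second, far dimmer probe gave 0.16 ± 0.07 (adjusted p = 0.179), and the third probe of the gene lay at background on all 8 arrays. Without PGISp G the brighter probe passed the threshold at 0.88 (adjusted p = 0.0365), and the mean of both probes passed at 0.43 (adjusted p = 0.0973). Without PGISp A the difference was 0.44 (adjusted p = 0.199), and without control spines B and F it was 0.52 (adjusted p = 0.57). Igtp (Irgm3) averaged 8.28 ± 0.10 in PGISp spines and 8.05 ± 0.15 in control spines (SD, n = 4 each; difference 0.23, adjusted p = 0.15). Ifi47 (Irgd) averaged 7.84 ± 0.14 in PGISp spines and 7.79 ± 0.12 in control spines, a difference well inside the spread. Iigp1 lay at background in both groups.

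Guanylate-binding proteins, the other large GTPases of the set, showed no difference beyond the spread. Gbp3 averaged 7.35 ± 0.15 in PGISp spines and 7.26 ± 0.13 in control spines (SD, n = 4 each). Gbp2 averaged 7.60 ± 0.13 in PGISp spines and 7.67 ± 0.06 in control spines, with a 95% interval of the difference of -0.24 to 0.10. Gbp4 was not above background on any array, and Gbp6 had no probe.

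Chemokines of the interferon response, which draw Cxcr3-bearing T cells into tissue, were not higher either. Cxcl9 averaged 7.17 ± 0.11 in PGISp spines and 7.22 ± 0.04 in control spines, with an interval of -0.20 to 0.10. PGISp spine A alone, at 7.34, read above all controls. Cxcl10 was above background on 1 PGISp array and 1 control array, and Socs1, the feedback inhibitor of JAK kinases, on 1 PGISp array and 0 control arrays.

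Of the oligoadenylate synthetase family, all 4 tested members had a higher mean in PGISp spines (48.5% of all genes) and 1 was called higher (6.25% of all genes). Oas2 averaged 7.16 ± 0.20 in PGISp spines and 6.90 ± 0.06 in control spines (SD, n = 4 each; difference 0.26; adjusted p = 0.140). PGISp A, C and G read 7.23, 7.28 and 7.27 for Oas2, above every control, and PGISp E read 6.85, inside the control range. Oasl2, an interferon-induced relative in this family, averaged 7.42 ± 0.22 in PGISp spines and 7.21 ± 0.10 in control spines (adjusted p = 0.281). The pattern over single spines was like that of Oas2, with E lowest. Oasl1, which in mouse restrains translation of Irf7, averaged 7.11 ± 0.19 in PGISp spines and 6.95 ± 0.11 in control spines (adjusted p = 0.366). Oas1a and Oas3 were below the filter, with means of 6.60 and 6.82 in PGISp spines and 6.67 and 6.69 in control spines. Oasl2 and Oasl1 are direct neighbours in the genome, as are Oas2 and Oas3.

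Sensors of viral nucleic acid showed small differences. Ddx58 (RIG-I), which detects viral RNA ends, read 6.95, 6.97, 7.06 and 6.95 in PGISp spines A, C, E and G, against 6.80, 6.92, 6.81 and 6.85 in control spines B, D, F and H. The groups did not overlap, and the difference was 0.14 ± 0.06 (SE; 1.10-fold; adjusted p = 0.180), which missed the threshold. Dhx58 (LGP2), its regulator, averaged 7.11 ± 0.15 in PGISp spines and 7.10 ± 0.18 in control spines. Zbp1, a sensor of Z-form nucleic acid, averaged 6.88 ± 0.06 in PGISp spines and 6.81 ± 0.07 in control spines. Ifih1 (MDA5), which detects long double-stranded RNA, was not above background on any array.

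Among effectors that act on virus particles and viral RNA, Bst2 (tetherin), which holds budding virus at the cell surface, read 6.89, 6.94, 6.94 and 6.91 in PGISp spines A, C, E and G, against 6.82, 6.75, 6.77 and 6.85 in control spines B, D, F and H. These levels lay close to background and did not overlap between the groups (difference 0.12 ± 0.05 SE, adjusted p = 0.209). With Samd9l, Irf1 and Ddx58, this made 4 of 28 genes in which all PGISp spines exceeded all controls (7.77% of all genes tested) and 0 of 28 in which all were below them (5.67%). Rsad2 (viperin), which makes a chain-terminating nucleotide, read 11.28, 10.69, 10.64 and 11.02 in PGISp spines A, C, E and G, against 10.84, 11.40, 10.71 and 10.63 in control spines B, D, F and H. Its spread within each group was wide, and the 95% interval of the difference ran from -0.40 to 0.43. Eif2ak2 (PKR), the kinase that halts translation on double-stranded RNA, averaged 8.32 ± 0.08 in PGISp spines and 8.32 ± 0.09 in control spines, with an interval of -0.15 to 0.16. Isg20, an exonuclease, averaged 8.30 ± 0.26 in PGISp spines and 8.35 ± 0.21 in control spines. Mx1 and Mx2, dynamin-like antiviral GTPases, were not above background on any control array, and Mx2 was above it on 1 PGISp array. BALB/c mice, like most laboratory strains, carry a defective Mx1 gene.

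Genes of the Isg15 pathway, in which a ubiquitin-like protein is attached to targets, did not separate the groups. Isg15 itself read 8.42, 7.47, 7.70 and 7.91 in PGISp spines A, C, E and G, against 7.54, 7.76, 7.55 and 8.06 in control spines B, D, F and H. The highest and the lowest values were both in PGISp spines, and the interval of the difference was -0.27 to 0.57. Usp18, which removes Isg15 from proteins and dampens the type I receptor, averaged 7.66 ± 0.19 in PGISp spines and 7.53 ± 0.23 in control spines. Trim25, the ligase that acts on RIG-I, averaged 6.78 ± 0.09 in PGISp spines and 6.80 ± 0.05 in control spines.

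The IFIT proteins, which bind viral RNA lacking host cap marks, were likewise close. Ifit3 averaged 7.38 ± 0.09 in PGISp spines and 7.29 ± 0.11 in control spines, and Ifit2 averaged 7.27 ± 0.09 in PGISp spines and 7.22 ± 0.10 in control spines (SD, n = 4 each). Ifit1 was not above background on any array. Of the transcription factors that carry the type I response, Irf7, which amplifies interferon alpha genes, averaged 7.06 ± 0.15 in PGISp spines and 6.92 ± 0.16 in control spines (adjusted p = 0.454). Irf9, the DNA-binding part of the type I complex, averaged 7.94 ± 0.14 in PGISp spines and 7.84 ± 0.12 in control spines (adjusted p = 0.515).

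Of the other induced proteins, Parp14 averaged 7.37 ± 0.11 in PGISp spines and 7.33 ± 0.05 in control spines, and Ifi35 averaged 7.11 ± 0.10 in PGISp spines and 7.19 ± 0.08 in control spines. Ifi35 had the most negative difference of the 28 genes, at -0.08 (adjusted p = 0.556). Xaf1 and Rtp4 were below the filter, and Ifi44 had no probe. In all, 12 of the 40 genes with a probe did not pass the filter. Without the filter, the median log2 fold change of the 40 genes was 0.05 and 2 were called higher (2.8% of 18312 genes).

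**Figure D3:**
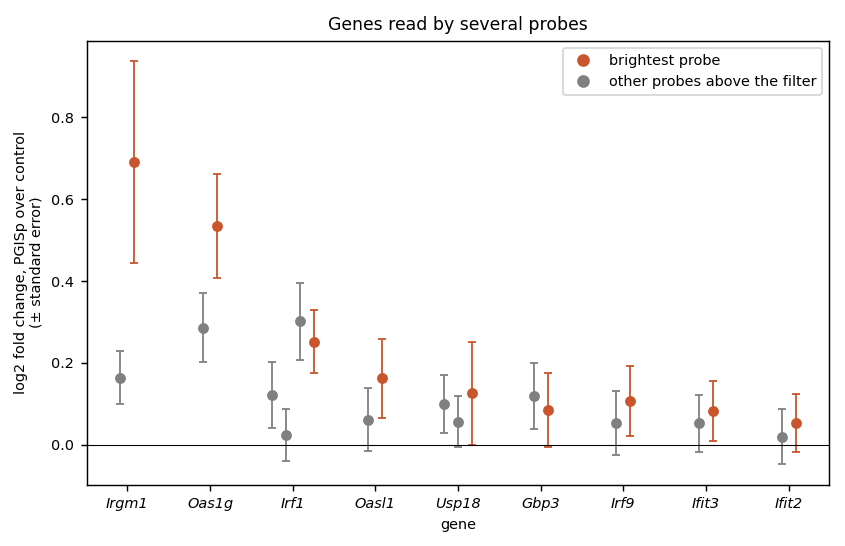
Log2 fold change of PGISp over control spines (y axis, ± standard error) for each probe of the 9 genes read by several probes above the filter. The brightest probe gave the larger difference for Irgm1 (0.69 against 0.16) and Oas1g (0.54 against 0.29), and the 4 Irf1 probes ran between 0.02 and 0.30.

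The classes are compared by their medians only. The median log2 fold change was 0.11 over 21 alpha-type genes and 0.09 over 7 gamma-type genes, against -0.0046 over all genes tested. Called higher were 2 of the alpha-type genes and 1 of the gamma-type genes, which is Irf1, against 6.25% of all genes. Differences ran from -0.08 to 0.57 among alpha-type genes and from -0.07 to 0.69 among gamma-type genes. When the genes labelled as responding to both interferons were left out, the medians were 0.12 over 19 alpha-type genes and 0.23 over 3 gamma-type genes (Irgm1, Igtp and Ifi47). The labelling was uneven, since it kept 28 of the 30 alpha-type genes listed but 6 of the 12 gamma-type genes. Genes that were kept may also respond to both, so these 2 medians do not compare the interferons. Without PGISp A the medians were 0.06 over alpha-type and 0.16 over gamma-type genes, and without PGISp G that of gamma-type genes was 0.04. The difference between the classes was not tested, since the genes of a class are not replicates.

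The shift was uneven over the single spines. Relative to each gene's mean over the 8 arrays, the median of the 28 genes was 0.13 in PGISp A, 0.04 in C, -0.07 in E and 0.09 in G, against -0.09 in control B, 0.04 in D, -0.17 in F and -0.03 in H. PGISp E thus read below control spines D and H, and the lowest value was in control F. PGISp E was the lowest spine of its group in 15 of 28 genes (53.6%), against 22.8% of all genes tested. Control F was the lowest of its group in 15 of 28 genes (53.6%), against 24.6% of all genes, and control D the highest in 16 of 28 (57.1%), against 27.9%. Control spines D and H both lay above both B and F in 19 of 28 genes (67.9%), against 21.7% of all genes, a split chosen after the values were seen.

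**Figure D4:**
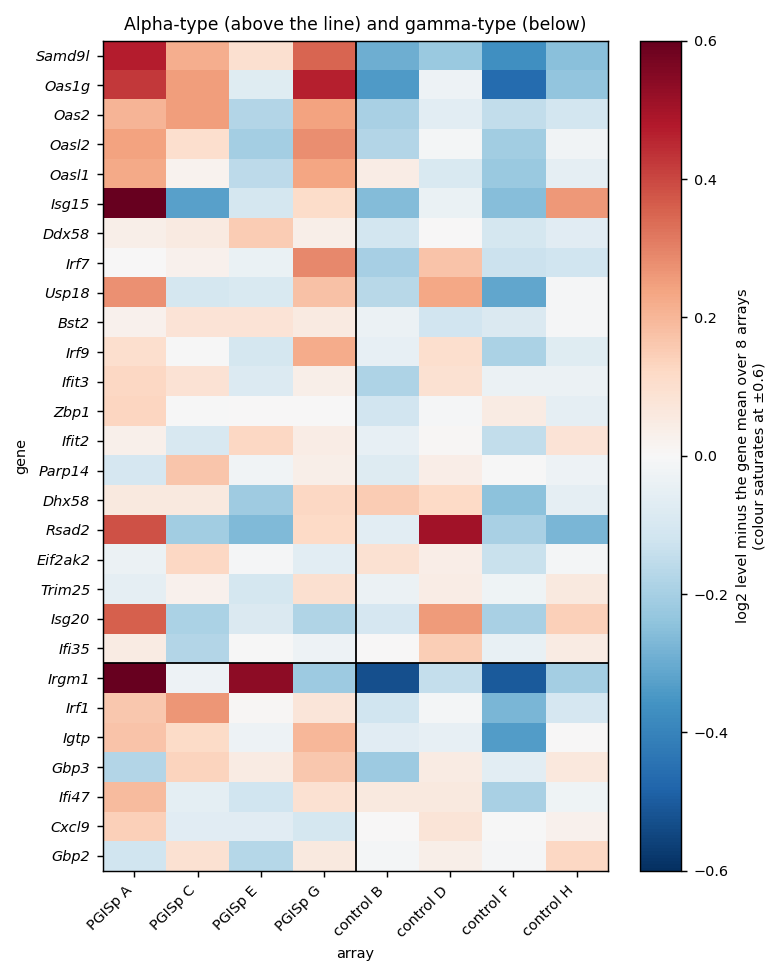
Log2 level of 28 interferon-induced genes (rows; alpha-type above the line, gamma-type below) in each spine (columns; PGISp left, control right), relative to the gene's mean over 8 arrays. Control F is the lowest control in 15 rows, and PGISp E is the lowest PGISp spine in 15 rows.

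**Figure D5:**
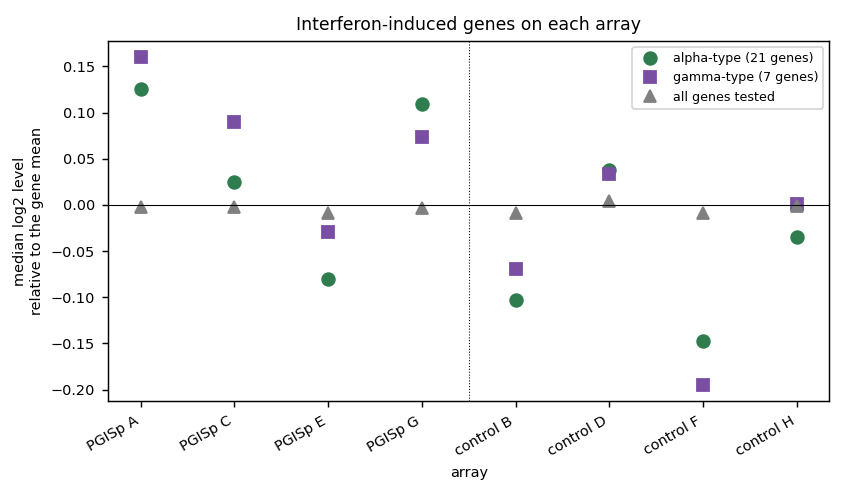
Median log2 level relative to the gene mean (y axis) on each array (x axis; PGISp left, control right) for 21 alpha-type genes, 7 gamma-type genes and all genes tested. Alpha-type genes are highest in PGISp A and G, gamma-type genes in PGISp A and C, and both are lowest in control F, while all genes tested stay within 0.01 of 0.

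Control spines B and F also differed from D and H in signal from the sex chromosomes, with D between them and H. Eif2s3y, which lies on the Y chromosome, read 6.61, 6.49, 6.65 and 6.54 in PGISp spines A, C, E and G, against 8.57, 6.92, 8.33 and 6.63 in control spines B, D, F and H. Xist, the RNA of the inactive X chromosome, read 8.37, 7.76, 7.85 and 7.40 in PGISp spines A, C, E and G, against 6.62, 7.37, 6.85 and 7.89 in control spines B, D, F and H. Eif2s3y was above background on 3 control arrays (B, D and F) and 0 PGISp arrays. Xist was above it on 3 control arrays (D, F and H) and 4 PGISp arrays. The labels give no sex. With B and F left out, 0 members were called, in limma on 4 PGISp and 2 control arrays, and the median log2 fold changes were 0.02 over alpha-type and 0.01 over gamma-type genes. The number of genes called in the whole series was then 163, against 1039 with all 8 arrays. The part of sex in these differences was not tested.

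The ligands that drive these genes were almost unreadable. Of 19 interferon genes listed, 17 were on the array and only Ifna6 passed the filter, with 6.90 ± 0.14 in PGISp spines and 6.88 ± 0.03 in control spines (SD, n = 4 each). Ifng and Ifnb1 did not pass. Of the receptor and JAK-STAT genes, 9 were tested and 0 were called in limma, against 6.25% of all genes called higher and 4.56% lower. At an unadjusted p below 0.05 in limma, 2 were higher (11.6% of all genes) and 0 were lower (10.9%). Ifngr2, the signalling chain of the interferon gamma receptor, averaged 8.30 ± 0.46 in PGISp spines and 7.74 ± 0.10 in control spines (1.46-fold; adjusted p = 0.117). PGISp A read highest for Ifngr2, at 8.88, and PGISp G, at 7.82, fell inside the control range of 7.62 to 7.85. Ifnlr1, the interferon lambda receptor, averaged 7.67 ± 0.27 in PGISp spines and 7.39 ± 0.07 in control spines (adjusted p = 0.185). The receptor chains Ifnar2 and Ifngr1 and the signalling proteins Jak1, Jak2, Tyk2 and Stat2 differed by -0.04 to 0.15 on the log2 scale.

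Upstream of interferon, 1 of 8 tested genes of nucleic acid sensing was called higher in limma (6.25% of all genes) and 0 lower (4.56%). At an unadjusted p below 0.05 in limma, 2 were higher (11.6% of all genes) and 0 were lower (10.9%). Myd88, the adaptor of most Toll-like receptors and of the interleukin-1 receptor, read 9.41, 9.47, 9.18 and 8.88 in PGISp spines A, C, E and G, against 8.85, 8.80, 8.70 and 8.82 in control spines B, D, F and H. All PGISp spines lay above all controls, by little in spine G, and the rise was 1.36-fold (adjusted p = 0.0540). Tbk1, a kinase that activates Irf3, averaged 9.25 ± 0.18 in PGISp spines and 9.0 ± 0.05 in control spines (adjusted p = 0.138).

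In a wider list of other interferon-induced genes, 4 of 38 tested were called higher in limma (6.25% of all genes) and 0 lower (4.56%). At an unadjusted p below 0.05, 7 were higher (11.6% of all genes) and 3 were lower (10.9%). The 3 lower ones were Ifi27, at -0.26 on the log2 scale, Cd274 (PD-L1, an inhibitory ligand for T cells), at -0.22, and Pml, the organiser of nuclear bodies, at -0.21, with adjusted p of 0.162, 0.182 and 0.148. Irf8, a transcription factor of macrophages and dendritic cells, rose 1.22-fold (8.14 ± 0.12 in PGISp and 7.85 ± 0.09 in control spines, adjusted p = 0.0499). Slfn2, which keeps T cells and monocytes quiescent, rose 1.23-fold (adjusted p = 0.0333). Irf2, a factor that competes with Irf1 for its sites, rose 1.24-fold (adjusted p = 0.0864). Nlrc5, an activator of MHC class I genes, is the fourth called gene (adjusted p = 0.0872). It passed the filter only through PGISp spines, with 6.89 ± 0.04 in PGISp spines and 6.70 ± 0.06 in control spines. Only 1 of 4 control arrays was above background, so its call carries no weight and no fold is given. The counts of 4 and 7 higher genes above include Nlrc5. The median log2 fold change of the 38 genes was 0.08.

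Markers of some other cell types moved with the groups, read against 6.25% of all genes called higher and 4.56% called lower. Of 16 tested markers of neutrophils and their precursors, 13 rose and 0 fell, and the mean log2 level of the list was 11.93 to 12.10 in PGISp spines and 11.29 to 11.43 in control spines. Among them Prtn3, a granule protease, rose 2.27-fold. Relative to each gene's mean over the arrays, the median of these 16 markers was 0.30 in PGISp A, 0.35 in C, 0.41 in E and 0.26 in G. Single markers differed in their order. PGISp E was the highest PGISp spine for Prtn3, at 12.53, but the lowest for Lcn2, at 13.10, and for Ltf, at 13.62. Of 11 monocyte and macrophage markers, 4 rose, and the mean level was 8.50 to 8.68 in PGISp spines and 8.30 to 8.32 in control spines. Of 6 T and NK cell markers, 2 rose (Nkg7 1.58-fold, Prf1 2.04-fold). The mean level was 8.17 to 8.51 in PGISp spines and 7.99 to 8.07 in control spines, and Nkg7 and Prf1 weigh on that mean. The other tested markers, Cd3d, Cd3g, Cd8b1 and Thy1, were not called in limma (adjusted p from 0.322 to 0.865). Cd3e, Cd4, Cd8a, Gzma, Gzmb, Klrb1c and Ncr1 did not pass the filter. Of 7 markers of plasmacytoid dendritic cells, a main source of interferon alpha, 1 rose (Tcf4, 1.17-fold). The mean level was 8.51 to 8.60 in PGISp spines and 8.54 to 8.63 in control spines. At an unadjusted p below 0.05 in limma, 2 were higher (Tcf4 and Siglech; 11.6% of all genes) and 1 was lower (Cox6a2; 10.9%). Cox6a2 was by far the brightest, at 12.45 in PGISp and 12.86 in control spines, and weighs on that mean. Siglech, the most specific of them, averaged 7.49 in PGISp and 7.26 in control spines (adjusted p = 0.146). Of 15 skeletal muscle markers, 0 rose and 1 fell (Tcap), and the mean level was 11.44 to 12.37 in PGISp spines and 11.98 to 12.57 in control spines. At an unadjusted p below 0.05 in limma, 7 were lower (10.9% of all genes) and 0 higher, with a median log2 fold change of -0.47. Relative to each gene's mean, their median was -0.68, -0.21, -0.26 and 0.25 in PGISp A, C, E and G. In control spines B, D, F and H it was 0.37, -0.13, 0.51 and 0.02, highest in B and F. Of 8 bone markers, 3 rose (Col1a1, Col1a2 and Ibsp, which rose 2.62-fold) and 0 fell, and the mean level was 8.96 to 9.59 in PGISp spines and 8.57 to 8.97 in control spines. B cell markers (5 tested), erythroid markers (5 tested) and cartilage markers (4 tested) had 0 calls in limma. Among them, 1 erythroid marker was lower (10.9% of all genes) and 1 cartilage marker higher (11.6%) at an unadjusted p below 0.05 in limma. The mean level of B cell markers was 7.70 to 7.98 in PGISp spines and 7.65 to 8.19 in control spines. The part of these cell types in the differences of the interferon-induced genes was not tested.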

How the data were processed

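RNA of 8 whole mouse spines was measured on Illumina MouseRef-8 arrays. Bead signals were read by the authors in GenomeStudio (BeadStudio in the submitters' notes), stabilized for variance and normalized with robust splines in lumi, and deposited as log2 values. Array distributions are thereby nearly equal (sorted values differed by at most 0.005), so a shift common to all genes cannot be seen. A table of non-normalized signals was not used, because its 16 per-sample columns match no label. Probes whose mean exceeded the array median (6.77) were kept, and the brightest stood for its gene. Groups were compared with limma 3.58.1 (lmFit, eBayes, R 4.3.3) over 9609 genes, with Benjamini-Hochberg adjustment and a threshold of 0.1. Background on each array (6.73 to 6.80) was the level that 95% of 1305 olfactory and vomeronasal receptor probes stayed below. Tested on simulated data of 9609 genes, the fit found 37% of 1.2-fold, 86.7% of 1.5-fold and 97.3% of 2-fold changes, and 10.1% of calls were false. The simulated noise was independent between genes. Differences that many genes share between arrays were not simulated, so 10.1% does not measure the false share of the calls here. Precision is limited by the number of arrays. The members, their classes and the lists were chosen with earlier results of these data known. Values on every array are given for members called, without overlap or with an absolute log2 fold change of at least 0.3; Rsad2 and Isg15 were added after their values were seen. From other lists, called genes with the largest changes were named, with a few uncalled genes beside them. Alternatives changed the filter, the choice of probe, the prior, weights of arrays, position, the threshold and the test (the methods' t-test), or left out arrays. 1 gene of the JAK-STAT list is not reported here.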

Additional observations from a re-analysis of the deposited data

Results flagged for a closer look

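In 4 of 56 groups of 4 spines tested, 1 spine stood apart from the other three by the gap test (Dixon), which chance alone does in about 1 in 20 groups. PGISp spine A read 7.34 for Cxcl9 and 6.97 for Zbp1, above the other PGISp spines. PGISp spine E read 6.85 for Oas2, below the other PGISp spines, and 7.06 for Ddx58, above them.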

How the results depend on the processing

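Over the alternatives run for 6 single members, 92 of 113 values kept their direction and their side of the threshold, 19 lost the call, 2 gained it and 0 changed direction. The 92 include Bst2, Ddx58 and Irgm1, which were not called to begin with. The call was kept in 17 of 18 alternatives for Samd9l, 15 of 19 for Oas1g and 7 of 21 for Irf1. Alternatives that changed only the filter, the prior, the threshold or the test left a probe's difference as it was, so its direction could not change there. Called members numbered 1 to 5 when 1 spine was left out (lowest without control B or F, highest without PGISp E), 0 without controls B and F and 1 by the methods' t-test, against 3. No alternative called a member lower in limma or in the t-test. Calls over all genes numbered 405 to 1564 when 1 spine was left out, 163 without controls B and F, 411 by the methods' t-test after Benjamini-Hochberg adjustment and 577 at an adjusted p below 0.05, against 1039. Ligand, receptor and JAK-STAT calls numbered 1 with an intensity trend and 0 to 1 when 1 spine was left out, against 0. The median log2 fold change of alpha-type members was 0.0171 without controls B and F. That of gamma-type members was 0.23 when genes labelled as induced by both interferons were left out, which left 3 tested genes. The cause of these changes was not tested. The adjusted p ranged from 0.00537 to 0.103 for Samd9l, from 0.0137 to 0.327 for Oas1g and from 0.0822 to 0.867 for Irf1. No paired analysis was possible because the labels carry no replicate numbers. Members near background can show only compressed differences.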
